A study of Arabidopsis thaliana with 8 samples.

Results

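NAC transcription factors form a plant-specific family named after NAM, ATAF and CUC, and 46 of its Arabidopsis genes were followed in leaves of ABI3:MTA plants (mta) and of wild-type plants (WT). The members were taken by gene identifier as a list of the family without ORE1 and NAP. No cut on measured values was applied, but earlier results of these data were known when the list was chosen. Of the 46 members, 44 were listed in at least 1 library, among 20690 listed genes in all. The annotation of TAIR10.1 names 55 further NAC genes outside the list.

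All plants were Arabidopsis thaliana of the Col-0 ecotype. The mta group carries ABI3:MTA, and the WT group carries no transgene that the labels name. MTA is the catalytic subunit of the writer of N6-methyladenosine (m6A), a base modification in mRNA. As background, MTA loss is lethal to the embryo, and the ABI3 promoter drives MTA mainly in the embryo, so that adult plants are left with little of it. The labels give neither the resident allele nor the number of lines. Both groups were sampled alike: leaves 5 to 9 of 4 week old plants grown at 22 °C under 16 hours of light and 8 hours of dark, taken 4 hours after first light. Polyadenylated RNA was sequenced in strand-specific libraries, 4 for mta and 4 for WT, and the comparison asks which transcripts differ in abundance between them. Whether the libraries stand for separate plants is not stated, and the p-values below cover only the spread between libraries, which may be technical.

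NAC proteins bind DNA through a conserved N-terminal domain and act through a variable C-terminal part. In leaves they are best known for setting the onset of senescence and for responses to drought, abscisic acid, wounding and pathogens. A subset is made as inactive precursors anchored in membranes of the endoplasmic reticulum, and proteolytic release sends the free factor to the nucleus. Transcripts of a few members are cleaved under the guidance of the microRNA miR164.

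The libraries listed 19204 to 19716 genes each and held 17132897 to 25377344 steps of the deposited scale, where 1 step may be 1 read. Levels below are normalised read counts, that is, deposited values rescaled between libraries. Log2 fold changes compare mta with WT as differences of log2(value + 1), a scale on which changes of low genes come out too small, and adjusted p-values are from limma over 18328 tested genes, with the threshold at 0.05. Errors are SD with n = 4 libraries per genotype unless said to be standard errors (SE). The libraries also spread along a second principal component (26.2% of the variance, against 51.7% for the first, which parted the genotypes), on which mta 1 and WT 1 shared an end opposite mta 4. Loadings on this component were related to the length of the transcript (rho = -0.56, Spearman, across genes, which are no independent replicates). MTA itself (AT4G10760) was at 51.0 ± 10.7 in mta and 72.5 ± 8.32 in WT (log2 fold change -0.52, limma adjusted p = 0.0312). That call was lost without WT 2, WT 3, WT 4 or mta 1, at log2 fold changes between -0.54 and -0.44. ABI3 was listed in no library.

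Of the 46 members, 42 reached the minimum for a test, 3 or more in 4 or more libraries. In mta 8 of them rose and 8 fell, and 26 did not pass. Among all tested genes 26.4% were called, 13.3% higher and 13.1% lower, and the members' share was 38.1%. ANAC085 and ANAC103 reached the minimum through the mta libraries alone; of the 40 other tested members 6 rose and 8 fell. The genotypes did not overlap for 15 of the 42 tested members (35.7%), beside 28.4% of all tested genes, and these 15 are all called members. ANAC085 and ANAC103 are among the 15. Their lack of overlap largely follows from the minimum, which they met in every mta library and in no WT library. The median log2 fold change was 0.04 over the tested members and -0.02 over all tested genes. The WRKY genes, another large family of plant transcription factors, gave a like picture: 12 of 52 tested rose and 8 fell (38.5%), with a median of 0.03. Leaving out single libraries moved these counts: 5 members rose without mta 1 and 4 without mta 3, and 14 WRKY genes fell without WT 1 but 5 without WT 2 or WT 3. Summed over all members, the family held 7566 to 8229 normalised read counts per mta library and 8302 to 8539 per WT library. In these whole-leaf samples, fewer cells of a type and less RNA per cell cannot be told apart.

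**Figure D1:**
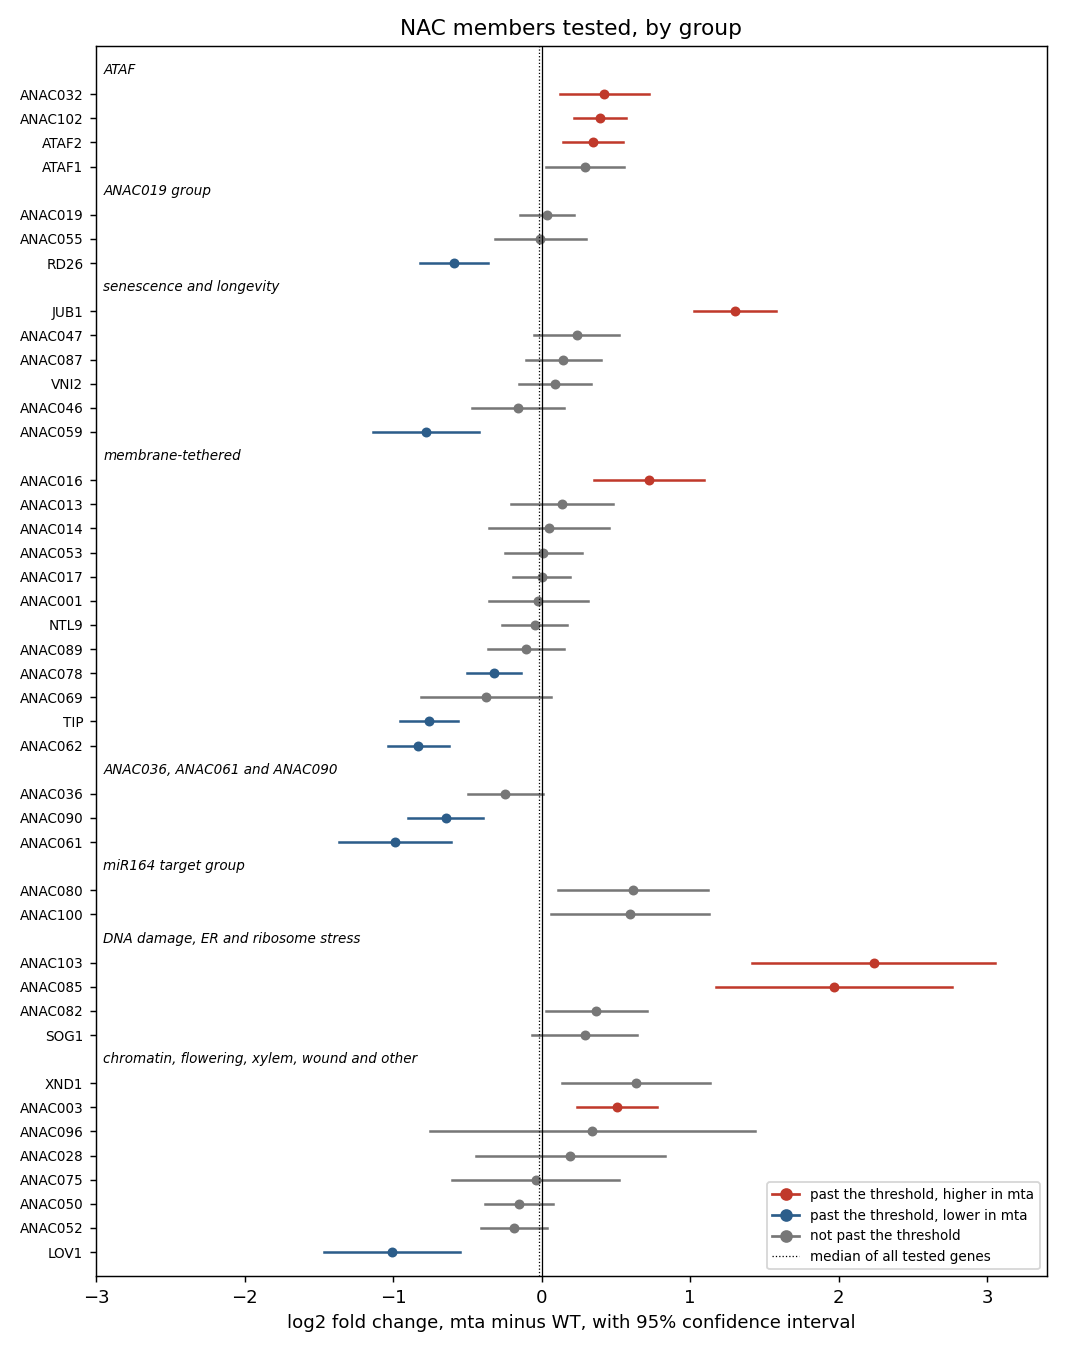
Log2 fold change (mta minus WT) of each tested NAC member on the x axis, ordered by role group down the y axis, with 95% confidence intervals. Red marks the 8 members that rose, blue the 8 that fell and grey the others, and the dotted line is the median of all tested genes; the called members run from 2.24 for ANAC103 to -1.01 for LOV1.

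The ATAF subgroup holds 4 stress-responsive factors, and 3 of them rose in mta. The background for a rise is 13.3% of tested genes. The median of the subgroup was 0.37. ANAC102 (AT5G63790), linked to tolerance of low oxygen, stood at 431, 420.5, 452 and 446 normalised read counts in mta 1 to 4, against 349, 329, 323 and 332 in WT 1 to 4. Every mta library lay above every WT library, and the spread within each genotype was small. Its log2 fold change was 0.39 (SE 0.08, limma adjusted p = 0.00455). ATAF2 (AT5G08790), a gene responsive to wounding and pathogens, had 472, 444, 465 and 413 in mta and 388, 330.3, 334 and 358 in WT. The groups again did not overlap, and the log2 fold change was 0.35 (SE 0.09, limma adjusted p = 0.0167). The call for ATAF2 was lost without WT 2, WT 3 or mta 3, at limma adjusted p-values of 0.0598, 0.058 and 0.0566.

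ANAC032 (AT1G77450), another stress-responsive member, had 43.4, 34.6, 40.8 and 40.8 in mta and 34.6, 26.4, 25.9 and 31.6 in WT. It is the called member whose groups overlap: mta 2 and WT 1 were level. Its log2 fold change of 0.42 (SE 0.14, limma adjusted p = 0.0411) no longer passed without WT 2, WT 3, WT 4, mta 1 or mta 3, nor with the authors' scaling (0.28, adjusted p = 0.102). ATAF1, a regulator of senescence that responds to abscisic acid, had 253, 237, 244 and 186 in mta and 207, 175, 168 and 199 in WT. The low library mta 4 lay within the WT range, and the log2 fold change was 0.29 (limma adjusted p = 0.0968). Without mta 4 it was 0.39 (limma adjusted p = 0.00969). The ratio of ATAF2 to ATAF1 within a library was 1.87 to 2.22 in mta and 1.80 to 1.99 in WT, which overlap.

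ANAC019, ANAC055 and RD26 are close relatives induced by drought, jasmonate and abscisic acid, and in the response to a bacterial jasmonate mimic they lower salicylic acid by acting on genes such as ICS1 and BSMT1. Of these 3, RD26 fell in mta, and the others did not pass the test. RD26 (AT4G27410) had 590.3, 589, 569 and 500.2 in mta, against 989, 769, 828 and 806 in WT. All mta libraries were below all WT libraries, with WT 1 the highest. The log2 fold change was -0.59 (SE 0.10, limma adjusted p = 0.00202). ANAC019 averaged 331 in mta and 322 in WT, which is a log2 difference of 0.04 with a 95% confidence interval of -0.14 to 0.22 (limma adjusted p = 0.773). ANAC055 averaged 84.0 in mta and 84.5 in WT, at -0.01 with an interval of -0.31 to 0.30 (limma adjusted p = 0.978). The paralogues therefore held different proportions in the 2 genotypes: RD26 was 1.50 to 1.92 times the level of ANAC019 in mta libraries and 2.45 to 3.03 times in WT libraries. Against ANAC055 the ratio was 6.36 to 7.43 in mta and 9.04 to 10.8 in WT. Neither ratio overlapped between the genotypes, and the ratios were not tested.

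**Figure D2:**
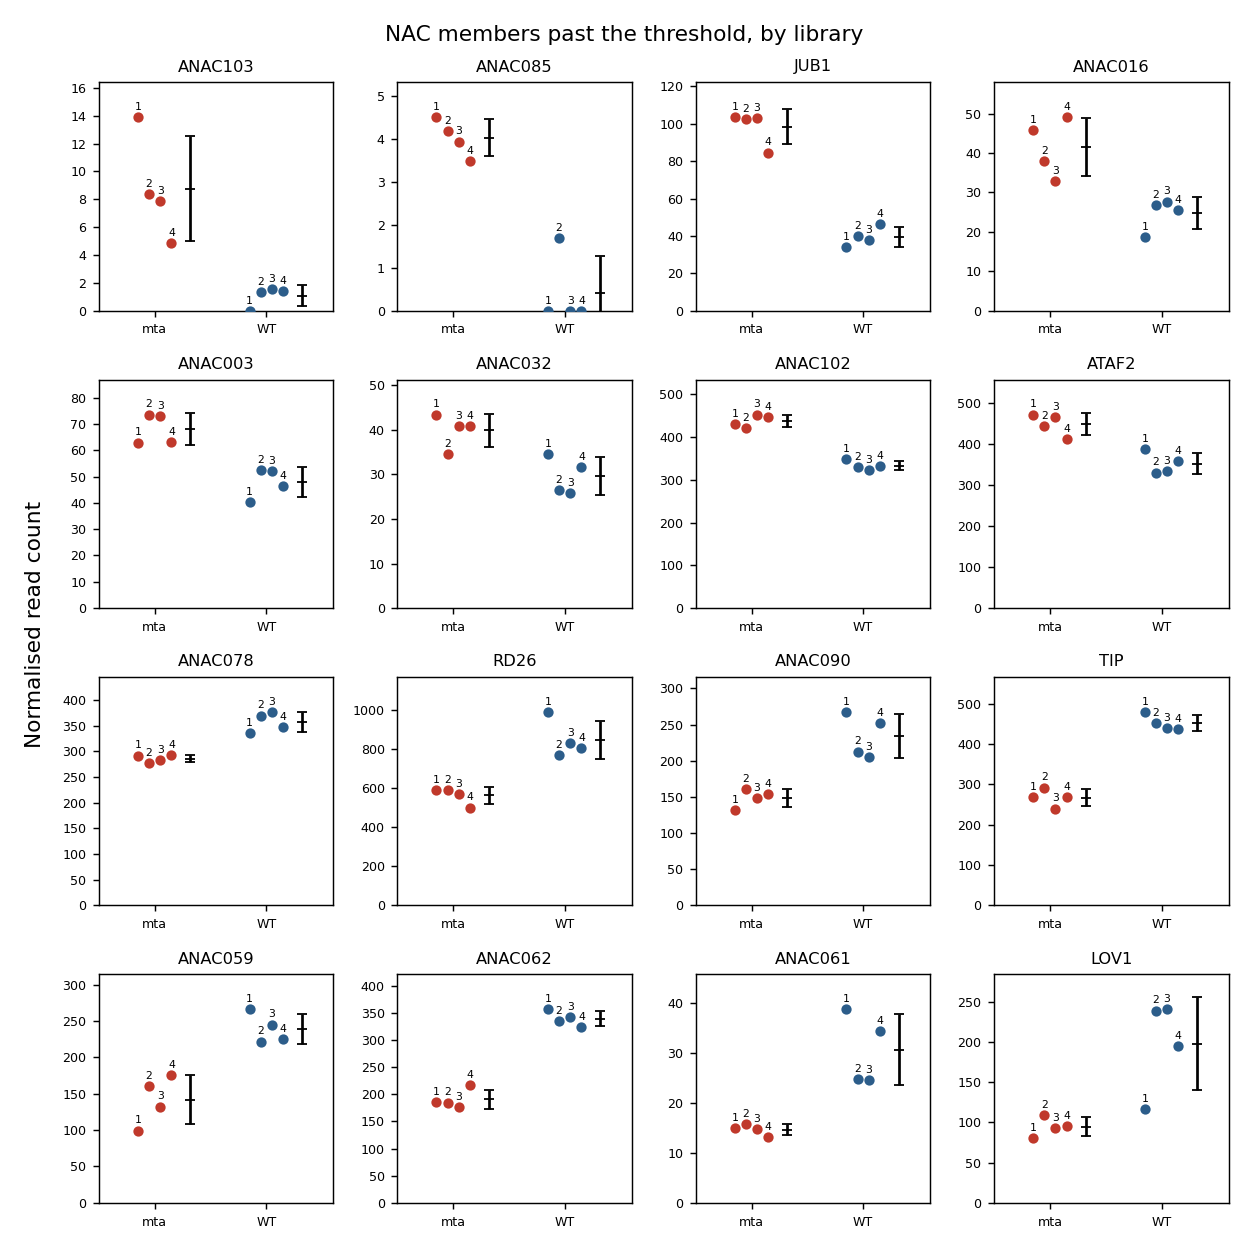
Normalised read count of each called NAC member in every library (y axis, linear, 1 panel per gene), with mta left of WT. Points carry the replicate number, libraries that do not list the gene are drawn at 0, and bars are mean ± SD; the genotypes overlap in the ANAC032 panel and in no other.

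Of 6 members linked to senescence and longevity, JUB1 rose, ANAC059 fell and 4 did not pass. JUB1 (Jungbrunnen 1, AT2G43000), a factor induced by hydrogen peroxide that delays leaf senescence, had 104, 103, 103 and 84.5 in mta and 34.0, 40.0, 37.6 and 46.1 in WT. The lowest mta library, mta 4, was still well above the highest WT library. The means were 98.4 ± 9.25 in mta and 39.4 ± 5.11 in WT, with a log2 fold change of 1.30 (SE 0.12, limma adjusted p = 4.44e-05). DREB2A, a drought and heat regulator that JUB1 is known to activate, fell, with means of 44.4 in mta and 87.6 in WT (log2 fold change -1.01, limma adjusted p = 0.00333).

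ANAC059 (AT3G29035), also named ORS1, promotes senescence and is a paralogue of ORE1. It had 99.4, 160.5, 132 and 176 in mta and 266, 222, 245 and 225 in WT. The mta libraries varied more among themselves than the WT libraries did, yet all lay below them. Its log2 fold change was -0.78 (SE 0.16, limma adjusted p = 0.00513). ORE1, left out of the member list, averaged 150.3 ± 18.7 in mta and 187 ± 16.0 in WT (-0.32, limma adjusted p = 0.0611). NAP, the other gene left out and an activator of chlorophyll loss through abscisic acid, rose, with 458 ± 25.0 in mta and 365 ± 18.2 in WT (0.33, limma adjusted p = 0.0162), but it did not pass without WT 4 or mta 2 (adjusted p of 0.0559 and 0.0562) or with the authors' scaling (0.18, adjusted p = 0.198). The members of this group that did not pass had log2 fold changes of 0.09 (VNI2, a repressor of vessel formation that also integrates salt signals into leaf ageing), -0.16 (ANAC046, a promoter of chlorophyll breakdown), 0.15 (ANAC087, which acts with ANAC046 in programmed cell death of the root cap) and 0.24 (ANAC047, of upward leaf movement under waterlogging).

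The senescence list of 13 genes outside the members moved both ways: 3 rose, 2 fell and 8 did not pass, with a median of -0.02. It mixes genes of different roles in senescence, so these counts and the median give no direction of the process. Without mta 2 the list held 3 calls. SAG13 rose (log2 fold change 1.07, limma adjusted p = 0.000204), while SAG29 and SAG12 fell (-4.00 and -3.11). NAP and GLK1 count among the 3 that rose, and ORE1 among the 8. GLK1, named after its values were seen, was at 0.49 (limma adjusted p = 0.0149). It did not pass without mta 2 or mta 3 (limma adjusted p of 0.0518 and 0.0532).

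The membrane-tethered members were the largest role group, with 14 genes, of which 12 were tested. In mta ANAC016 rose, and ANAC062, ANAC078 and TIP fell. The background for a fall is 13.1% of tested genes, and the group's median was -0.03. TIP (ANAC091, AT5G24590), found as a partner of the turnip crinkle virus coat protein, had 268, 292, 239.6 and 268 in mta and 479, 451, 439 and 437 in WT. Both genotypes were tight and far apart, and the log2 fold change was -0.76 (SE 0.09, limma adjusted p = 0.000182). ANAC062 (NTL6, AT3G49530), released from membranes under cold and during pathogen and endoplasmic reticulum stress, had 185, 185, 176 and 217 in mta and 357, 334, 342 and 324 in WT. The highest mta library was below the lowest WT library by a wide margin, with a log2 fold change of -0.83 (SE 0.09, limma adjusted p = 0.000123).

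ANAC078 (AT5G04410), an activator of proteasome subunit genes when the proteasome is impaired, had 292, 278, 283 and 292 in mta and 335, 369.6, 377 and 348 in WT. The groups did not overlap, but the difference was small, at -0.32 (SE 0.08, limma adjusted p = 0.0157). Without WT 2, WT 3 or mta 2 it did not pass (limma adjusted p of 0.0559, 0.0593 and 0.0573). ANAC053, its partner in that response, averaged 93.9 in mta and 92.7 in WT (0.01, limma adjusted p = 0.958), and the ratio of ANAC078 to ANAC053 overlapped, at 2.70 to 3.72 in mta and 3.68 to 4.16 in WT. Of 10 proteasome genes, RPT2A, a subunit of the regulatory particle, fell (615 ± 70.0 in mta and 810.2 ± 108 in WT, -0.40, limma adjusted p = 0.0281), and 9 did not pass. The median of the list was -0.17. Its count of called genes was 2 without mta 1 and 0 when WT 3, WT 4, mta 2 or mta 3 was left out. With the authors' scaling it was 6.

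ANAC016 (AT1G34180), linked to drought responses and senescence, was the tethered member that rose. It had 45.9, 38.0, 32.9 and 49.1 in mta and 18.7, 26.8, 27.7 and 25.6 in WT. The groups did not overlap, although both were spread, and the log2 fold change was 0.72 (SE 0.17, limma adjusted p = 0.00958). ANAC017, the neighbouring gene and a key factor of mitochondrial retrograde signalling, averaged 588 in mta and 587 in WT, which is a log2 difference of 0.00 with a 95% confidence interval of -0.19 to 0.19. ANAC016 was 0.0560 to 0.0927 of the level of ANAC017 in mta and 0.0308 to 0.0495 in WT, without overlap. ANAC013, which acts in the same pathway, was at 0.14 (limma adjusted p = 0.553).

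Genes of the mitochondrial retrograde list, which respond when respiration is impaired, moved both ways: of 8 tested, 2 rose, 3 fell and 3 did not pass, with a median of -0.07. AOX1D, an alternative oxidase gene, rose (161 ± 18.6 in mta and 65.1 ± 5.75 in WT, 1.29, limma adjusted p = 2.99e-05). AOX1A, the alternative oxidase gene used as the marker of the pathway, fell (226 ± 8.66 in mta and 334 ± 24.0 in WT, -0.56, limma adjusted p = 0.00108). UGT74E2, an auxin glucosyltransferase gene, rose by 0.56 on the log2 scale (limma adjusted p = 0.00804), but by 0.42 with the authors' scaling (adjusted p = 0.0611). The list's count of called genes was 3 without mta 2 or mta 3.

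The other tethered members did not pass. NTL9, a regulator of osmotic and immune responses, averaged 172 in mta and 178 in WT (-0.05). The ratio of TIP to NTL9 was 1.39 to 1.69 in mta and 2.45 to 2.66 in WT, and that of ANAC062 to ANAC014 was 2.58 to 3.78 in mta and 5.22 to 7.70 in WT, neither with overlap. ANAC014 was at 0.05, ANAC001 at -0.02 and ANAC089, which acts in endoplasmic reticulum stress and fructose sensing, at -0.11. ANAC069 averaged 46.4 in mta and 59.1 in WT (-0.37, limma adjusted p = 0.193). In mta 4 it stood at 69.0, and without that library the log2 fold change was -0.58 (limma adjusted p = 0.00854). NTL8, which delays flowering under salt, was under the minimum, at 0 to 3.76 in mta and 2.03 to 2.54 in WT, and ANAC060, of sugar sensing, was listed in no library.

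**Figure D3:**
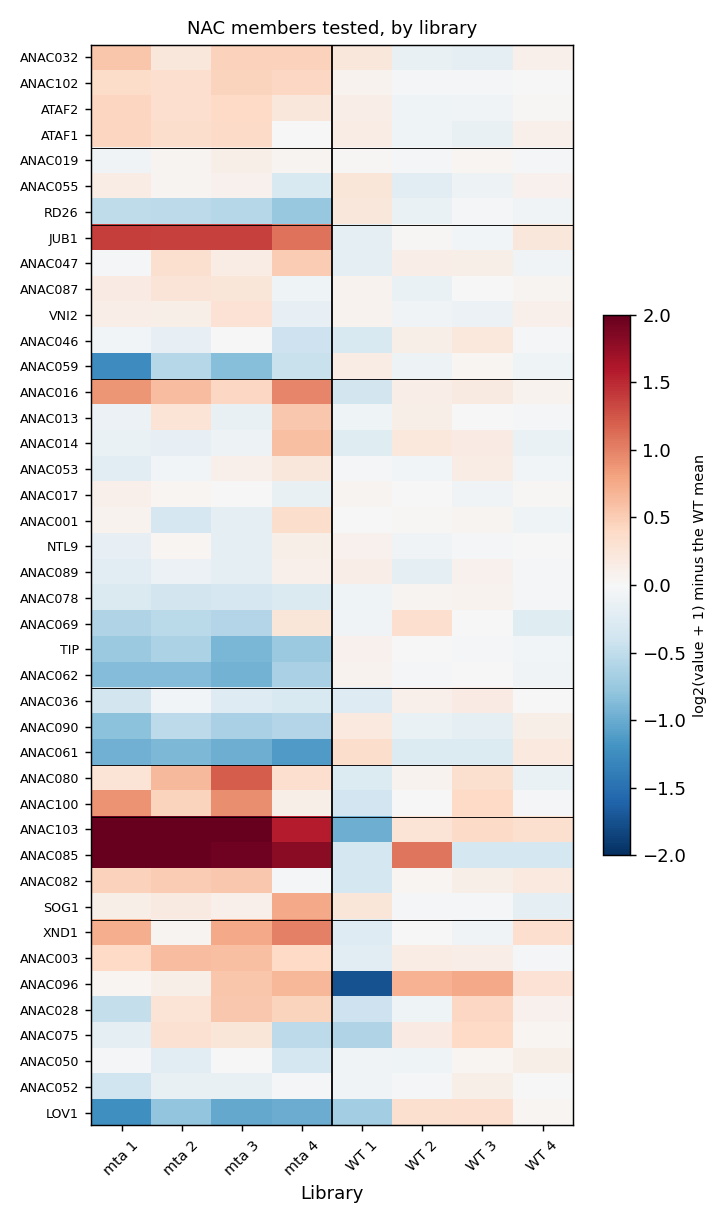
Log2(value + 1) of each tested NAC member in each library, minus the mean of log2(value + 1) over its WT libraries. Members are by role group down the page, with the libraries mta 1 to 4 left of WT 1 to 4. Colours are clipped at 2 in both directions. TIP, ANAC062, ANAC061 and ANAC090 are low and JUB1 is high across all 4 mta libraries.

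ANAC036, ANAC061 and ANAC090 belong together by sequence, and ANAC061 and ANAC090 both fell in mta. ANAC090 (AT5G22380), a negative regulator of leaf senescence, had 132, 161, 149 and 154 in mta and 268, 213, 205 and 252 in WT. ANAC061 (AT3G44350) had 14.9, 15.7, 14.8 and 13.1 in mta and 38.7, 24.7, 24.6 and 34.4 in WT. For both genes the mta libraries were the 4 lowest, and WT 1 and WT 4 were the 2 highest. The log2 fold changes were -0.64 (SE 0.11, limma adjusted p = 0.00212) for ANAC090 and -0.99 (SE 0.17, limma adjusted p = 0.00185) for ANAC061. ANAC036, which restrains growth when overproduced, averaged 464 in mta and 551 in WT (-0.24, limma adjusted p = 0.142). Without WT 1 its log2 fold change was -0.37 (limma adjusted p = 0.0215). The ratio of ANAC090 to ANAC036 overlapped, at 0.305 to 0.347 in mta and 0.333 to 0.586 in WT.

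Because ANAC061 and ANAC090 moved together, the 300 bases before their annotated starts are shown, from RefSeq's TAIR10.1, 5′ to 3′ toward the gene. The promoter of ANAC103, which rose, is set beside them because it shares a motif. Capitals mark matches to TTGAC, the core of the W-box bound by WRKY factors, and to CGCGTT, the rapid stress response element (RSRE), each searched on both strands without overlap between the 2 motifs.
ANAC061 (chr3:16024520-16024819, minus strand): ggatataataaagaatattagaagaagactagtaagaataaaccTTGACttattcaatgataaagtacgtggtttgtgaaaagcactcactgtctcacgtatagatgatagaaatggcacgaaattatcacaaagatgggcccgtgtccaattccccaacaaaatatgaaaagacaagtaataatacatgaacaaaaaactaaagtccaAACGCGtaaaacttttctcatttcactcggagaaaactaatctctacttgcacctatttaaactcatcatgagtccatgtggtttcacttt
ANAC090 (chr5:7410103-7410402, minus strand): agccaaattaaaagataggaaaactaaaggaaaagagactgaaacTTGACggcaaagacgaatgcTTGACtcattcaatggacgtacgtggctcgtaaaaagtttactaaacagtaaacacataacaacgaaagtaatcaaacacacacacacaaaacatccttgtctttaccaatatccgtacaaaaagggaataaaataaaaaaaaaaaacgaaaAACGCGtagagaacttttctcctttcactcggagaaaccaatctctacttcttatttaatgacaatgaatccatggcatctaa
ANAC103 (chr5:25635790-25636089, minus strand): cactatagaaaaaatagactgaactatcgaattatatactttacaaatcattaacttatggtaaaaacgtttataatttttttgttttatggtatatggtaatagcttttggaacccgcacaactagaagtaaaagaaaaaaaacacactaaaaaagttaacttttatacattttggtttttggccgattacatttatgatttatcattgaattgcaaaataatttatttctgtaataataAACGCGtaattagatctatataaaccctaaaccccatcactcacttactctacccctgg
ANAC061 and ANAC090 each hold an RSRE, as AACGCG, at 91 and 83 bases before the start. They hold TTGAC at 256 bases in ANAC061 and at 255 and 235 bases in ANAC090. The letters after the core at 256 bases resemble those after the ANAC090 core at 235 bases, not at 255. ANAC061 and ANAC090 also share a run of 15 bases, tttcactcggagaaa, at 71 and 61 bases before the start. The RSRE and this run lie close together in a stretch of similar letters, so they are not separate shared features. ANAC103 has an RSRE as well, at 59 bases, so the motif stands before members of both directions. RSRE was found in 3.37% of 17936 promoters of the same length, in 2 of the 8 members that fell, 1 of the 8 that rose and 1 of the 26 others. The W-box core was found in 50% of promoters, in 6 of the members that fell, 4 of those that rose and 9 of the others. The G-box CACGTG was present in 8.1% of promoters, in 1 member of each direction (ANAC062 fell, ANAC032 rose) and in 4 of the 26 others. TCATCG, a motif of the unfolded protein response, was present in 7.73%, in no called member and in 1 of the 26 others. Sequence further upstream was not searched for any member, ANAC103 included, so an absence holds for this window alone. A match is a description of letters, not of binding.

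**Figure D4:**
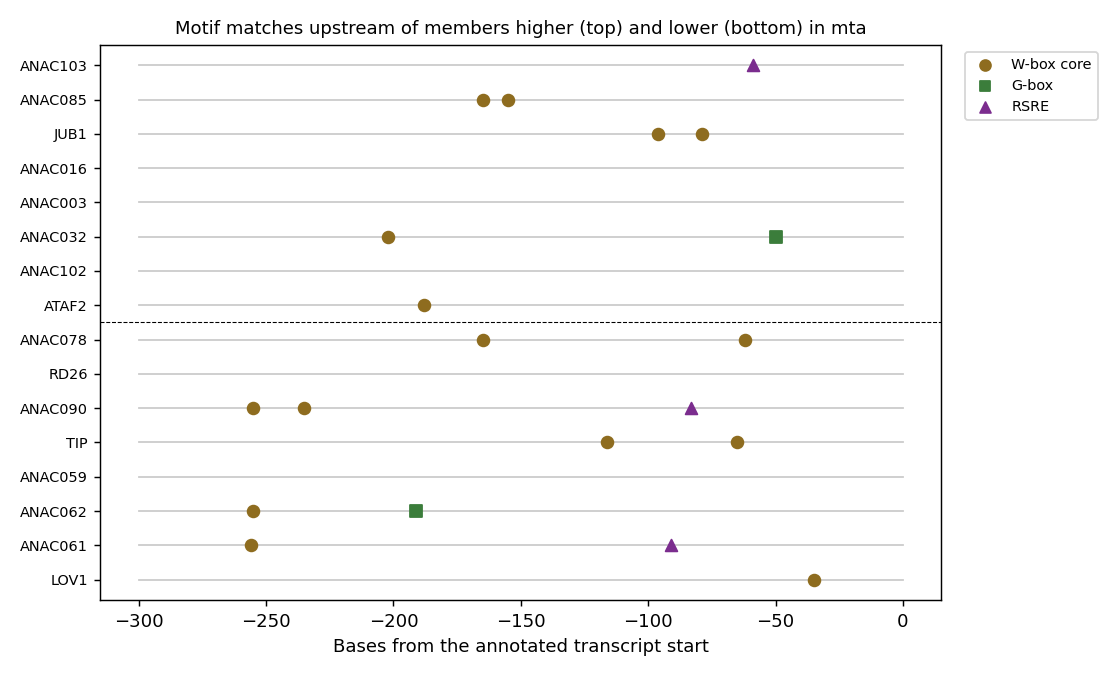
Positions of W-box core, G-box and RSRE matches in the 300 bases before the annotated start of each called NAC member, with members that rose above members that fell and distance to the start in bases on the x axis. ANAC061 and ANAC090 carry the RSRE at 91 and 83 bases. Their W-box cores are at 256 bases in ANAC061 and at 255 and 235 bases in ANAC090.

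ANAC080 and ANAC100 are targets of miR164. Mature sequences of miR164 from RefSeq are shown with the seed, bases 2 to 8, in capitals, since both transcripts carry a site for it.
miR164a: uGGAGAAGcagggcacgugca
miR164b-5p: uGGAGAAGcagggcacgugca
miR164c-5p: uGGAGAAGcagggcacgugcg
The 3 share the seed, and miR164c-5p differs from the others in its last base. Of the 46 members, 2 have a site with at most 4 mismatches to miR164a over 21 bases, each with 2, and the next best members have 6. Capitals in the sites mark bases complementary to miR164a.
ANAC080: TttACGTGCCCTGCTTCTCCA
ANAC100: TctACGTGCCCTGCTTCTCCA
ANAC080 (AT5G07680) had 11.1, 14.7, 22.0 and 11.5 in mta and 7.30, 9.48, 11.5 and 8.13 in WT. ANAC100 (AT5G61430) had 12.2, 8.64, 12.5 and 6.71 in mta and 4.44, 6.10, 8.36 and 5.98 in WT. In both genes the means were higher in mta, but the groups overlapped and neither passed. The log2 fold changes were 0.62 with a 95% confidence interval of 0.11 to 1.12 (limma adjusted p = 0.0707) and 0.60 with 0.06 to 1.13 (limma adjusted p = 0.0928). Without mta 4 they were 0.71 and 0.76, with limma adjusted p-values of 0.0382 and 0.0261. Outside the members, the site of NAC1 (AT1G56010), aGCACGTaCCCTGCTTCTCCA, has 2 mismatches, and that of ORE1, ctCACGTGaCCTGCTTCTCCg, has 4. NAC1 averaged 263 in mta and 315 in WT, with all mta libraries the lower ones, a log2 difference of -0.26 that did not pass (limma adjusted p = 0.0934).

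Members of DNA damage, endoplasmic reticulum and ribosome stress included the largest rises, in genes of low level. ANAC103 (AT5G64060), a target of the endoplasmic reticulum stress factor bZIP60, had 13.9, 8.38, 7.89 and 4.83 in mta. It was at 1.35, 1.57 and 1.43 in WT 2 to 4 and not listed in WT 1. With the unlisted library set at 1, its mean was at least 6.52-fold higher in mta, and the fitted log2 fold change was 2.24 (SE 0.37, limma adjusted p = 0.00151). ANAC085 (AT5G14490), which with ANAC044 carries the stop of cell division after DNA damage, had 4.52, 4.19, 3.94 and 3.49 in mta. In WT it was listed in WT 2 alone, at 1.69. Its mean was at least 3.53-fold higher in mta, and the fitted log2 fold change was 1.97 (SE 0.36, limma adjusted p = 0.00252). Both rest on few reads and were tested only because mta passed the minimum.

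SOG1, the central factor of the plant DNA damage response and an activator of ANAC044 and ANAC085, averaged 66.8 in mta and 53.8 in WT (0.29, limma adjusted p = 0.212). Of 8 tested DNA damage genes, ANAC044 alone passed. It was at 3.47 to 4.93 in the 4 mta libraries and in no WT library's list, at least 4.08-fold higher in mta (limma adjusted p = 0.000155). ANAC044 rests on few reads and was tested only because mta passed the minimum. The other 7 did not pass, and the list's median was -0.09. Like ANAC085, ANAC044 had no value once any mta library was left out, since it no longer reached the minimum; the list's count was then 0 without mta 1, mta 2 or mta 3 and 1 without mta 4, and it was 2 without WT 1.

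The unfolded protein response list moved mostly one way: 7 of 8 genes rose, and BZIP60 did not pass (-0.17, limma adjusted p = 0.46). The median was 1.01, beside -0.02 over all tested genes, of which 13.3% rose. CNX1, a chaperone of glycoproteins, averaged 2337 ± 117 in mta and 742 ± 73.6 in WT (1.66, limma adjusted p = 1.54e-06). BIP3, a chaperone gene induced by endoplasmic reticulum stress, averaged 181 ± 86.5 in mta and 28.6 ± 3.28 in WT (2.53, limma adjusted p = 5.46e-05). ERDJ3A, a co-chaperone gene, rose by 1.56 on the log2 scale (limma adjusted p = 0.000276). BIP1 and BIP2, which also rose, are near-identical copies and uncertain individually. ANAC082, of the ribosomal stress response, averaged 599 in mta and 463 in WT (0.37, limma adjusted p = 0.101). Without mta 4, where it was lowest at 449, its log2 fold change was 0.50 (limma adjusted p = 0.00924), and without WT 1 it was 0.21.

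Among the remaining 10 members, with roles in flowering, chromatin, xylem and wounding, ANAC003 rose and LOV1 fell. LOV1 (Long Vegetative Phase 1, AT2G02450), which delays flowering and promotes cold tolerance, had 80.6, 109, 93.0 and 95.0 in mta and 116, 239, 240.3 and 195 in WT. WT 1 was far below the other WT libraries and just above the highest mta library. The log2 fold change was -1.01 (SE 0.21, limma adjusted p = 0.005), and -1.28 without WT 1. LOV1 overlaps a gene on the opposite strand by 808 bases. ANAC003 (AT1G02220) had 62.9, 73.6, 73.0 and 63.1 in mta and 40.3, 52.5, 52.0 and 46.4 in WT. The groups did not overlap, with a log2 fold change of 0.51 (SE 0.12, limma adjusted p = 0.0113). With the authors' scaling the limma adjusted p was 0.0727.

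ANAC050 and ANAC052, partners of the histone demethylase JMJ14, were at -0.15 and -0.19 (limma adjusted p of 0.316 and 0.205). XND1, which blocks the differentiation of vessel elements, averaged 13.0 in mta and 7.87 in WT (0.64, limma adjusted p = 0.0607). Without mta 2 it was at 0.83 (limma adjusted p = 0.0203). ANAC096, of abscisic acid responses, was at 0.34, and at -0.27 without WT 1, ANAC075 at -0.04 and ANAC028 at 0.19, and none passed. ANAC057 was under the minimum, at 0 to 3.76 in mta and 1.35 to 2.61 in WT, and ANAC071, of tissue reunion in wounded stems, was listed in no library.

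Of 7 tested xylem genes 2 rose and 5 did not pass, with a median of 0.25. XCP2, a protease of vessel cells, averaged 145 ± 17.4 in mta and 99.2 ± 14.2 in WT (0.54, limma adjusted p = 0.0104). VND6, a NAC gene outside the member list and a switch of vessel differentiation, was at 0.74 (limma adjusted p = 0.0483), and it failed to pass once WT 1, WT 2, WT 3, WT 4, mta 2, mta 3 or mta 4 was left out, at limma adjusted p-values of 0.0536 to 0.139. Beside these, the summed xylem markers were at 323 to 416 in mta and 276 to 345 in WT with 1 of 4 higher. The summed phloem markers were at 1817 to 2305 in mta and 1364 to 1554 in WT with 3 of 4 higher, and the guard cell markers at 287 to 447 in mta and 205 to 280.3 in WT with 2 of 4 higher. Their part in the members' results was not tested. Mesophyll markers were abundant in every library (sums of 260327 to 443573 in mta and 193788 to 236691 in WT, 1 of 4 higher), epidermis markers summed to 1376 to 1826 in mta and 1621 to 1808 in WT (1 of 4 higher), and all 4 seed markers were listed in no library. Of the flower markers AP3 was not listed, and AG was the marker that rose, with sums of 5.21 to 8.05 in mta and 3.13 to 5.08 in WT.

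All 8 genes of salicylate and abscisate output that were followed beside the members were called, 3 higher and 5 lower, with a median of -0.52. Among all tested genes 26.4% were called, 13.3% higher and 13.1% lower. The list was chosen with earlier results of these data known. The call for RD29A, a drought-responsive gene that fell (-0.71, limma adjusted p = 0.0284), was lost when any of mta 1 to 3 or WT 1 to 3 was left out (adjusted p of 0.0585 to 0.0883), which left 7. UGT74F2, which glucosylates salicylic acid, averaged 1085 ± 69.8 in mta and 593 ± 43.6 in WT (0.87, limma adjusted p = 7.33e-05). ICS1, the main enzyme of salicylic acid synthesis, rose by 0.47 on the log2 scale, with 534 ± 16.9 in mta and 385 ± 24.4 in WT (limma adjusted p = 0.00206). BSMT1, which methylates salicylic acid and is activated by the ANAC019 group, fell, with means of 51.1 in mta and 75.1 in WT (-0.56, limma adjusted p = 0.00775). NCED3, of abscisic acid synthesis, fell as well (-0.92, limma adjusted p = 0.000501), and so did ERD1 (-0.48, limma adjusted p = 0.0108). COR15A went the other way and rose, with means of 3360 in mta and 2167 in WT (0.66, limma adjusted p = 0.0114), although its groups overlapped. DREB2A, BSMT1, RD29A, ERD1 and COR15A were named after their values were seen.

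Per kilobase of transcript, which allows levels of different genes to be compared, VNI2 was the highest member in both genotypes, at 985 in mta and 920.2 in WT. In mta it was followed by ANAC036 (353), ANAC102 (332) and RD26 (315), and in WT by RD26 (474), ANAC036 (419) and ANAC102 (253). TIP was at 118 in mta and 200.3 in WT, and ANAC090 at 159 in mta and 250.1 in WT. JUB1, at 71.6 in mta and 28.7 in WT, ranked 17 in mta and 29 in WT. The lowest tested member was ANAC028 in mta, at 1.77 (1.47 in WT), and ANAC085 in WT, at 0.271 (2.58 in mta). These are levels per kilobase, and the order was not tested.

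**Figure D5:**
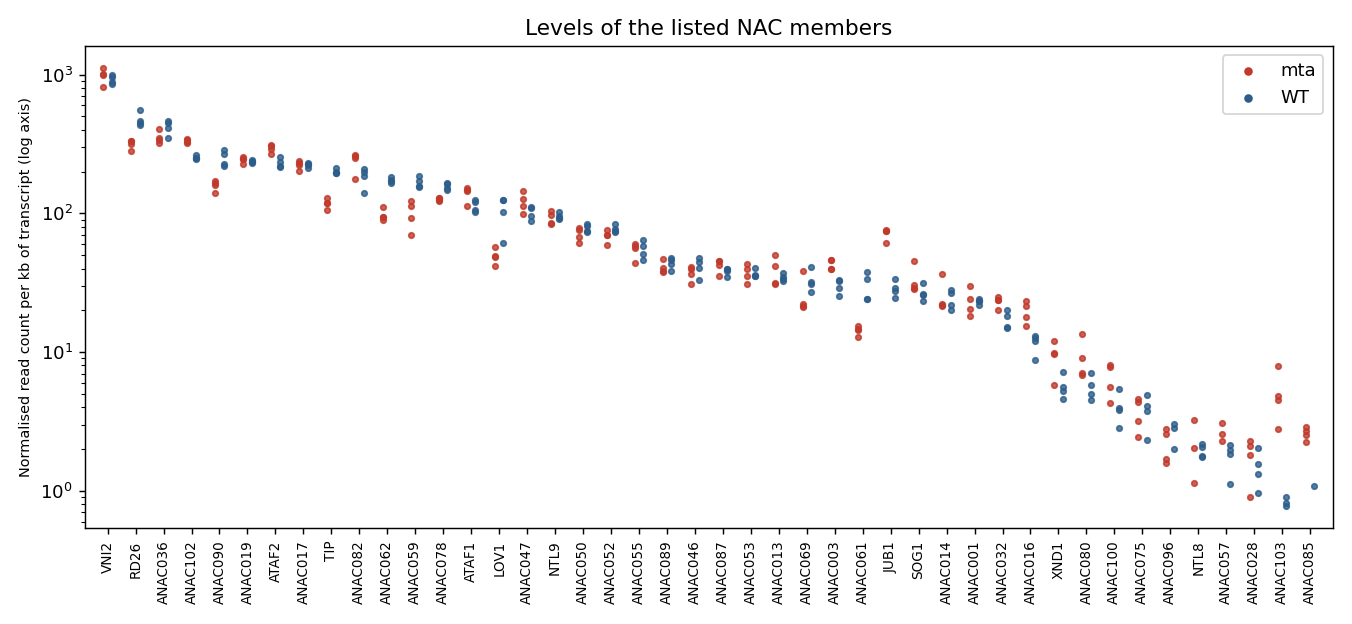
Normalised read count per kilobase of transcript (logarithmic axis) for each listed NAC member, ordered by level in WT. NTL8 and ANAC057, which were under the minimum for a test, are included. The mta and WT libraries are separate points, and only libraries that list the gene are drawn. Among the tested members, mean levels in mta span from VNI2, at 985 per kilobase, to ANAC028, at 1.77.

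Reads of the members were little affected by copies elsewhere: 42 of 46 share no stretch of 50 bases with another gene, and ANAC069 shares 6.44% of such stretches, ANAC003 1.1% and ANAC050 and ANAC052 under that. In all, 8 members overlap genes on the opposite strand. Among called members, besides LOV1, these are ANAC078 (by 375 and 81 bases), ATAF2 (158), JUB1 (107) and ANAC102 (85). AT5G63780, the neighbour of ANAC102, averaged 149 in mta and 247 in WT, and the shorter overlap of ANAC078 is with a gene at 142 in mta and 129 in WT. The strand setting of the counting is not given in the sources used here. Outside the member list, 18 of the 55 further NAC genes were tested, of which 5 rose (NAP, ANAC041, ANAC044, NAC076 and VND6, named after their values were seen) and 13 did not pass, 27.8% called beside 26.4% of all tested genes. ANAC044 and NAC076 reached the minimum through mta alone; of the other 16, 3 rose (18.8%).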

How the data were processed

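Polyadenylated RNA of leaves was measured in 4 mta and 4 WT libraries. Per the submitters' processing notes, STAR 2.4.0, HTSeq and DESeq2 were used with build TAIR10; order and settings are not given in the sources used here. The unit of the values deposited by the authors is a normalised signal for each gene, apparently counts over 1 factor per library, with nothing below 1 listed. In each library 100% of listed values were whole multiples of 1 step (within 0.02 of a step). The values did not pass as recovered reads, so the planned count test was not run. Entries without a gene (no feature 4.92 to 5.97% of the deposited total, ambiguous 0.359 to 0.406%, more than 1 alignment 6.06 to 9.07%) stayed out.

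Unlisted genes were set to 0. Scaling used factors from the trimmed mean of M values (trims 0.3 and 0.05, factors 0.883 to 1.08), a gene needed 3 or more in 4 or more libraries, and log2(value + 1) was fitted with limma 3.58.1 (trend, genotype as the only term) in R 4.3.3, with Benjamini-Hochberg adjustment at 0.05 over all tested genes. No test of the fit on simulated data is reported here. The members, role groups, lists and alternatives were chosen with earlier results of these data known. Every member past the threshold is named with its value in each library, the others with means, ranges or fold changes, and of each list up to 3 genes with the smallest adjusted p. Names, transcript lengths and sequences came from RefSeq's TAIR10.1 annotation and genome; the files hold no coordinates and none were converted. Alternatives covered scaling, filter, pseudocount, weights, replicate block, transcript length, and libraries left out or merged. Figures were drawn with matplotlib 3.10.9.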

Additional observations from a re-analysis of the deposited data

Results flagged for a closer look

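Among 88 tests of a single library standing apart within its genotype, over 44 listed members, 7 passed Dixon's test at the 95% level, where chance gives about 1 in 20. Of these 7, 5 concern mta 4, and the others rest on unlisted libraries set to 0, where that rate does not apply. In mta 4, JUB1 was at 84.5 normalised read counts, apart from 103 to 104 in the other mta libraries, and ANAC082 was the lowest of its group at 449. In the same library ANAC014, at 84.0, ANAC069, at 69.0, and SOG1, at 90.7, were the highest of their groups. mta 4 also stands at an end of the second principal component, which runs with transcript length; its part in these values was not tested. In WT, ANAC085 was listed in WT 2 alone, at 1.69, and ANAC103 was not listed in WT 1, where its value is therefore 0 here. Both of the last lie near the lowest value that the files list. ANAC085 passed by construction, since its other WT libraries were all set to 0.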

How the results depend on the processing

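Member fold changes were refitted 867 times under the alternatives; 832 kept their side of the threshold, and 16 lost and 19 gained a call. The sign differed in 33 fits of 10 members, none of them called by limma in those fits. ANAC102, JUB1, ANAC016, ANAC085, ANAC103, RD26, ANAC059, ANAC062, TIP, ANAC061, ANAC090 and LOV1 passed in every fit that gave them a value. ANAC085 and ANAC103 had no value once any mta library was left out, or with a minimum of 10. The same 2 genes had none without WT 1, mta 1 and mta 4 together. Leaving out single libraries gave 4 to 10 members higher (5 without mta 1, 4 without mta 3), 7 to 9 lower, 3192 to 6543 genes called in all, 10 to 15 WRKY genes higher and 5 to 14 lower, and list counts of 3 to 6 (mitochondrial retrograde), 0 to 2 (proteasome), 0 to 2 (DNA damage), 3 to 7 (senescence) and 1 to 2 (xylem). The log2 fold change of MTA ran from -0.61 to -0.44. Without WT 1, mta 1 and mta 4 together, 8397 genes, 13 WRKY genes lower, 3 proteasome, 2 DNA damage and 10 senescence genes were called, and MTA was at -0.29. With WT 2 and WT 3 averaged, 5 WRKY genes were lower and MTA was at -0.49. With upper-quartile factors 0 proteasome genes were called by limma, and MTA was at -0.46; with the authors' scaling 6 were. The transcript length correction, with or without the replicate block, gave 2 proteasome and 2 DNA damage genes, and a minimum of 10 gave 0 DNA damage genes. The xylem count was 1 with the authors' scaling, the minimum of 10, pseudocount 0.5, precision weights, the length correction, the replicate block (alone or with the length correction) and WT 2 and WT 3 averaged. The authors' scaling moved the median log2 fold change of all genes from -0.02 to -0.16 and the share of calls that were lower from 49.7% to 71.8%. Replicate numbers did not pair the libraries (correlations of same-numbered libraries of 0.47, 0.08, -0.20 and -0.35; 2 of 4 mta libraries correlated best with their own number); with the replicate block 9 members were higher and 8 lower, the addition being ANAC080. Members with under 10 normalised read counts are limited by depth.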
